A study of Homo sapiens with 60 samples.

Results

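The aldo-keto reductases described here are 10 genes, AKR1A1, AKR1B1, AKR1B10, AKR1C1, AKR1C2, AKR1C3, AKR1C4, AKR1D1, AKR7A2 and AKR7A3, of 60675 genes measured by RNA sequencing in HepG2 cells, a human liver carcinoma line. They were taken by name, with earlier results of these data known, and each symbol matched 1 Ensembl gene of the table. Cells were kept for 24 h with 1 of 7 water extracts, each at 500, 100 and 20 µg/mL, or with the dimethyl sulfoxide vehicle, which the sample labels put at 0.1% and the series text at 2%. The extracts came from 4 single herbs (Cinnamomi Cortex, Cnidii Rhizoma, Rehmanniae Radix Preparata and Astragali Radix) and 3 formulas, of which Palmul-tang is traditionally made by joining Sagunja-tang with Samul-tang. Vehicle and each dose of 6 extracts had 3 libraries, which makes 57 libraries in 19 groups, while each Palmul-tang dose was a single library. No source used here says that the 3 libraries of a group came from separate cultures, so the p-values measure the spread between these libraries, which may be technical. Sample codes place Cnidii Rhizoma and Rehmanniae Radix Preparata in 1 set, and Cinnamomi Cortex and Astragali Radix in a second. Sagunja-tang and Samul-tang are in another, while Palmul-tang and the vehicle each carry a code of their own. All sample titles carry the label BatchB.

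Aldo-keto reductases are enzymes that use NADPH to reduce aldehydes and ketones to alcohols. In liver they clear reactive aldehydes formed from oxidised lipids and sugars, and they shape steroids, bile acids and retinoids. AKR1A1 and AKR1B1 are general aldehyde and aldose reductases, AKR1B10 reduces retinal and lipid aldehydes and is often raised in liver cancer, the AKR1C genes encode hydroxysteroid dehydrogenases, AKR1D1 makes the A/B ring junction of bile acids, and AKR7A2 and AKR7A3 reduce aflatoxin aldehydes. AKR1B10 and several AKR1C genes are known targets of NRF2, the transcription factor released when cells meet electrophiles or oxidants.

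The members lie in small clusters of the genome (GRCh38, GENCODE release 29). AKR1C1 (ENSG00000187134, chr10:4963253-4983283, plus strand), AKR1C2 (ENSG00000151632, chr10:4987400-5018031, minus strand), AKR1C3 (ENSG00000196139, chr10:5035354-5107686, plus strand) and AKR1C4 (ENSG00000198610, chr10:5195462-5218949, plus strand) follow each other on chromosome 10. AKR1B1 (ENSG00000085662, chr7:134442350-134459284, minus strand), AKR1B10 (ENSG00000198074, chr7:134527592-134541408, plus strand) and AKR1D1 (ENSG00000122787, chr7:138002324-138117986, plus strand) are on chromosome 7. AKR7A3 (ENSG00000162482, chr1:19282558-19289250, minus strand), AKR7A2 (ENSG00000053371, chr1:19303965-19312146, minus strand) and AKR1A1 (ENSG00000117448, chr1:45550543-45570049, plus strand) are on chromosome 1.

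AKR1C1 and AKR1C2 are near copies, which matters for every value given for them. Their coding sequences differ at 19 of 972 bases (98.0% identity). The stretch in which they differ most, coding bases 103 to 162 in exon 2 of each gene, is printed from GENCODE release 29. It shows where the coding sequences are most easily told apart. Capitals mark the 10 bases that differ.
AKR1C1, chr10:4965932-4965991, plus strand: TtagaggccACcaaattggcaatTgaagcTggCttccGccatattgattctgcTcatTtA
AKR1C2, chr10:5001604-5001663, minus strand: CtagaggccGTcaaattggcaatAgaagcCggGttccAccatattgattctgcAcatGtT
Of the 100-base windows of the principal transcript, as long as a read, 17.2% of those of AKR1C1 and 31.1% of those of AKR1C2 occur unchanged in the other gene. Estimated counts were not whole numbers in 100% of libraries for AKR1C1 and in 98.3% for AKR1C2 and for AKR1C3. Some of their reads were therefore divided between genes by estimation, but the counts do not show between which genes. AKR1C3 shared 1.11% of its windows with AKR1C1 and 4.22% with AKR1C2. The counts of AKR1A1, AKR1B1, AKR1D1 and AKR7A2 were whole in all 60 libraries.

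The promoters of the pair are also nearly the same, although the 2 genes are read from opposite strands. The windows from 250 bases before to 50 bases after the RefSeq start (GRCh38.p14) aligned over 292 bases with 288 identical, against 78.0% identity between the AKR1C1 window and the first AKR1C3 window. They are shown because the ratio of the 2 genes with these windows changed with dose. Capitals mark the 4 substituted bases and the 4 bases of AKR1C1 that have no partner.
AKR1C1, chr10:4963165-4963464, plus strand: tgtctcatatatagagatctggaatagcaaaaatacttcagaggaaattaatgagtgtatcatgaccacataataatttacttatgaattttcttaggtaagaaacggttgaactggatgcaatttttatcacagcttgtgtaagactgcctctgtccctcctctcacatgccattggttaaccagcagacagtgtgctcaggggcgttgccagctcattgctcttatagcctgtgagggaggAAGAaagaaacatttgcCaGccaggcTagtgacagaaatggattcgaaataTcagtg
AKR1C2, chr10:5003808-5004107, minus strand: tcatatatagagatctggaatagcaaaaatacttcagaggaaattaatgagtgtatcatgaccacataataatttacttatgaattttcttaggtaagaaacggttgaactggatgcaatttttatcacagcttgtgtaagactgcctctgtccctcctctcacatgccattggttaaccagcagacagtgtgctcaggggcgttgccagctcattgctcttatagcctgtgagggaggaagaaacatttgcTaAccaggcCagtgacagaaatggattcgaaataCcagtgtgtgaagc
The RefSeq table held a promoter for 9 of the 10 members. A strict form of the element to which NRF2 binds, TGACNNNGC, searched on both strands, matched 13.3% of 35116 promoter windows of this length and, among the members, AKR7A2. The looser TGANNNNGC, which includes the strict form, matched 41.8% of all windows and those of AKR1C1, AKR1C2, AKR7A2 and AKR7A3. A match is a description of the letters in a window and not a bound site.

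Expression was computed as CPM, the usual depth-scaled count, which sets a gene's reads against all reads of its library after TMM scaling. Total counts per library ran from 16484546 to 34412234, with a median of 25507583. Per kilobase of the principal transcript, vehicle cells held 56.4 ± 1.60 CPM of AKR1B1 (SD, n = 3), 43.4 ± 2.02 of AKR1C2, 41.2 ± 2.27 of AKR1C1, 41.1 ± 0.98 of AKR1A1, 32.7 ± 1.68 of AKR7A2, 25.0 ± 0.51 of AKR1B10, 20.9 ± 2.00 of AKR1C3 and 9.96 ± 0.017 of AKR1D1. This order rests on the annotated length. AKR1C1 has a principal transcript of 6705 bases, and per kilobase of coding sequence it led with 285 CPM, ahead of AKR1C2 with 168 and AKR1B1 with 83.6. The other two members were close to silent. AKR7A3 had 2 to 20 counts per library and no called difference, its dose trends lying between -0.30 and 0.22 with SE of 0.17 to 0.18, and AKR1C4 had 0 to 8 counts and was the 1 member that did not pass the filter on low counts.

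All 12 hepatocyte markers, among them ALB, APOA1 and HNF4A, were above 0.1 CPM in vehicle cells, where they summed to 63295 to 65360 CPM per library. Of 15 markers of other cell types, 8 were under 0.1 CPM in vehicle cells, including PTPRC, COL1A2 and KRT7, and the sum was 126 to 132 CPM. Among those above it, ACTA2 had 64.8 ± 1.87 CPM, CD68 58.4 ± 1.77 and CD14 3.42 ± 0.40 (SD, n = 3). In bulk RNA, fewer cells of a kind and less RNA per cell cannot be told apart.

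AKR1B10 rose with dose in all 6 replicated extracts, AKR1C2 in all 6 and AKR1C1 in 5. The dose trend is the log2 difference between 500 and 20 µg/mL divided by 2, so it gives the log2 change per 5-fold step in concentration. It was called at an adjusted p under 0.05 in edgeR's quasi-likelihood test. With Cinnamomi Cortex 8 of the 9 tested members were called, 7 higher and AKR1D1 lower, in a contrast in which 61.9% of all 16167 genes were called. With the other extracts the calls were few. They were 3 members higher with Cnidii Rhizoma (background 3.22%), 3 higher with Rehmanniae Radix Preparata (0.674%), 2 higher with Astragali Radix (1.16%), 3 higher with Sagunja-tang (4.99%), and 3 higher and AKR7A2 lower with Samul-tang (9.88%).

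**Figure D1:**
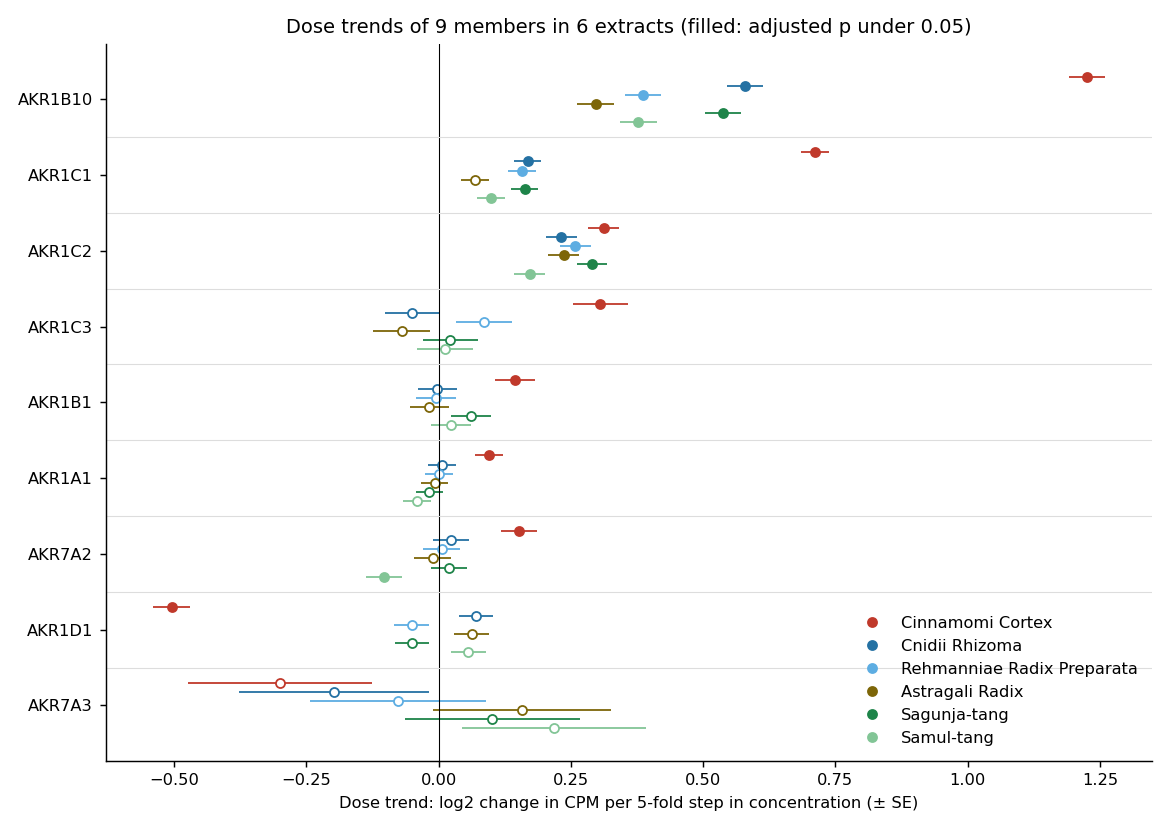
Dose trend of each of the 9 tested members (vertical axis) as the log2 change in CPM per 5-fold step in concentration (horizontal axis) in 6 extracts, shown by colour; points are estimates, bars are ± 1 SE, and filled points passed an adjusted p of 0.05. AKR1B10 and AKR1C2 lie to the right of 0 in all 6 extracts, AKR1C1 is open only for Astragali Radix, and AKR1D1 lies at -0.50 with Cinnamomi Cortex; with scaling by total counts the AKR1A1 trend of Cinnamomi Cortex is -0.04.

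The median trend over the 9 tested members was 0.15 with Cinnamomi Cortex, beside -0.01 over all genes, and lay between 0.0060 and 0.063 with the other 5 extracts, beside medians of -0.0013 to 0.00060 over all genes. Of the 16167 genes, 7 rose with dose in all 6 extracts and 3 fell in all 6. The 7 were AKR1B10, AKR1C2, PIR (pirin, an iron-binding nuclear protein), SRXN1 (sulfiredoxin), GSR (glutathione reductase), GPD1 (a cytosolic glycerol phosphate dehydrogenase) and CPLX2 (a complexin). This count was made after the trends were seen, and the 5 that are not members are named for that reason. AKR1B10 had the largest of their smallest trends, 0.30, followed by AKR1C2 with 0.17.

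AKR1B10, the reductase of retinal and lipid aldehydes, moved most. Vehicle libraries stood at 40.2, 38.9 and 40.4 CPM. Cinnamomi Cortex gave 37.0, 35.9 and 34.1 CPM at 20 µg/mL, 70.9, 67.1 and 68.4 at 100, and 188, 193 and 203 at 500. The 3 doses did not overlap, and the 100 and 500 libraries all lay above vehicle. Against vehicle the fold was 1.73 at 100 (log2 0.79 ± 0.068 SE, adjusted p = 1.01e-12) and 4.90 at 500 (log2 2.29 ± 0.067 SE, adjusted p = 9.72e-32). Of all genes 62.7% were called at 500, and of the 9 members 7, while at 100 the figures were 19.4% and 2. At 20, where 7.16% of genes were called, edgeR called 0 members and DESeq2 0, with 3 at an unadjusted p under 0.05.

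With the other extracts AKR1B10 rose at 500 µg/mL and was not called against vehicle at 100. Cnidii Rhizoma at 500 gave 70.9, 86.3 and 89.0 CPM, and Sagunja-tang gave 72.8, 76.4 and 82.5. Rehmanniae Radix Preparata gave 64.5, 63.6 and 63.3 CPM, Samul-tang 56.8, 55.9 and 62.1, and Astragali Radix 57.4, 50.2 and 49.6. Every one of these 15 libraries was above every vehicle library. The fitted folds over vehicle were 2.06, 1.94, 1.60, 1.46 and 1.31, with adjusted p from 7.49e-16 to 3.67e-04. Against vehicle at 500, 3 of 9 members were called with Cnidii Rhizoma (background 11.8%), 3 with Rehmanniae Radix Preparata (7.45%), 3 with Sagunja-tang (12.3%), 3 with Samul-tang (13.7%) and 2 with Astragali Radix (3.04%). In the order of the group means, Cinnamomi Cortex 500 stood first and clear of the next. Cnidii Rhizoma 500 and Sagunja-tang 500 overlapped, Cinnamomi Cortex 100 (68.8 ± 1.96 CPM, SD, n = 3) came after them, then Rehmanniae Radix Preparata 500, and Samul-tang 500 and Astragali Radix 500 overlapped.

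At 20 µg/mL the group means of AKR1B10 lay between 34.6 and 37.2 CPM, all under the vehicle mean of 39.8 ± 0.81 (SD, n = 3). The difference was called with Samul-tang (log2 -0.21 ± 0.070 SE, adjusted p = 0.0302), where 20.7% of all genes were called. Leaving out vehicle replicate 1, vehicle replicate 3 or Samul-tang 20 replicate 2 ended that call, with adjusted p of 0.0832, 0.0771 and 0.154. In the other 5 extracts it was not called at 20, where the background was 6.49% for Cnidii Rhizoma, 7.18% for Rehmanniae Radix Preparata, 3.93% for Astragali Radix and 11.4% for Sagunja-tang. At 100 no member was called against vehicle with Cnidii Rhizoma (background 3.58%) or Rehmanniae Radix Preparata (4.17%) by edgeR or DESeq2, with 1 and 0 at an unadjusted p under 0.05.

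**Figure D2:**
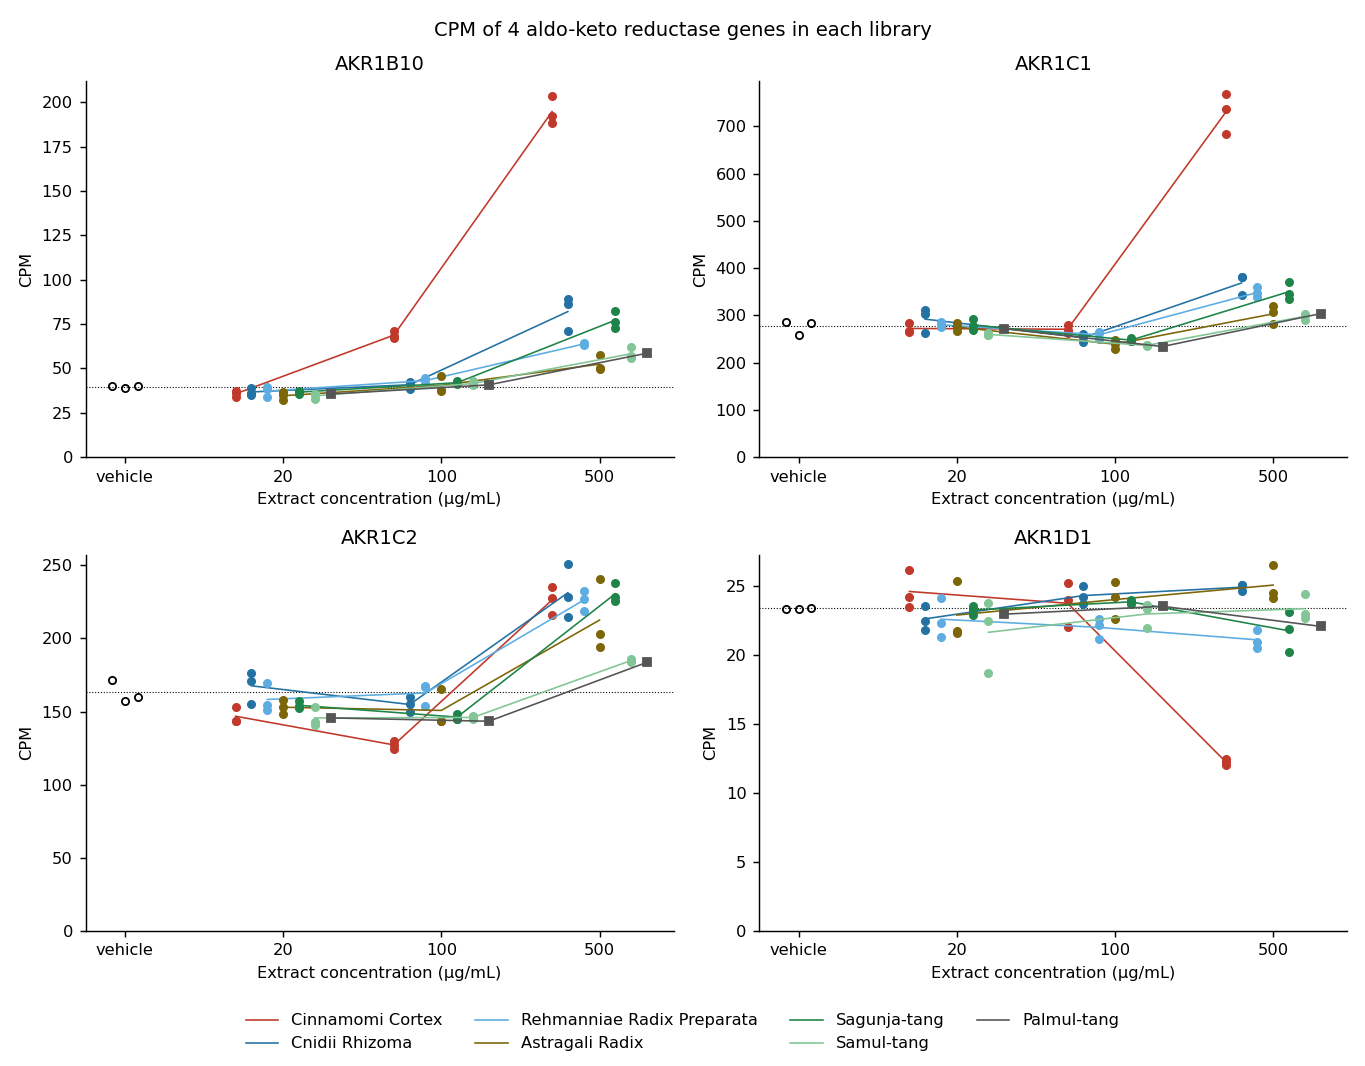
CPM of AKR1B10, AKR1C1, AKR1C2 and AKR1D1 (vertical axes, from 0) in every library against extract concentration in µg/mL (horizontal axes, evenly spaced steps; extracts are set side by side at each dose). Open circles and the dotted line are the 3 vehicle libraries and their mean, filled circles are replicates, squares are the single Palmul-tang libraries, and lines join group means. AKR1B10 is already at 68.8 CPM at 100 µg/mL with Cinnamomi Cortex, while the means of the other 5 replicated extracts go from between 34.6 and 37.2 CPM at 20 to between 40.5 and 43.2 at 100.

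AKR1C1 and AKR1C2 encode hydroxysteroid dehydrogenases that inactivate progesterone and dihydrotestosterone. AKR1C1 stood at 286, 259 and 284 CPM with vehicle. With Cinnamomi Cortex it was 267, 266 and 284 CPM at 20, 281, 262 and 269 at 100, and 737, 685 and 769 at 500 µg/mL. The 500 libraries were far above all others, and the 20 and 100 libraries overlapped vehicle. The fold at 500 over vehicle was 2.64 (log2 1.40 ± 0.053 SE, adjusted p = 1.17e-27).

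The other extracts gave AKR1C1 smaller changes at 500 µg/mL. Cnidii Rhizoma gave 343, 382 and 382 CPM, Rehmanniae Radix Preparata 339, 347 and 360, and Sagunja-tang 345, 371 and 335, each above all vehicle libraries. Their folds over vehicle were 1.33, 1.26 and 1.27, all called (adjusted p 2.03e-07 to 2.38e-05). Samul-tang, with 290, 300 and 304 CPM, also lay above vehicle but was not called (log2 0.11 ± 0.052 SE, adjusted p = 0.174). Astragali Radix, with 321, 282 and 308 CPM, overlapped vehicle and was not called either.

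AKR1C2 stood at 172, 158 and 160 CPM with vehicle. At 500 µg/mL it reached 215, 228 and 251 CPM with Cnidii Rhizoma, 229, 238 and 225 with Sagunja-tang, and 228, 216 and 235 with Cinnamomi Cortex. Rehmanniae Radix Preparata gave 219, 227 and 232 CPM, Astragali Radix 241, 194 and 203, and Samul-tang 184, 186 and 185. All 18 libraries were above vehicle, and the groups of the first 5 overlapped each other in the order of means. The folds over vehicle ran from 1.13 with Samul-tang to 1.42 with Cnidii Rhizoma, and Cinnamomi Cortex had 1.39. The Samul-tang call (adjusted p = 0.0292) ended when any 1 of 5 of the 6 libraries compared was left out, vehicle replicate 1 being the exception, with adjusted p of 0.0634 to 0.140. Cinnamomi Cortex, which raised AKR1B10 and AKR1C1 further than any other extract, overlapped other extracts in AKR1C2 at 500 in these TMM-scaled values. By total counts the log2 difference of AKR1C2 from vehicle at 500 was 0.19 with Cinnamomi Cortex and 0.18 with Samul-tang. With the others it was 0.37 (Astragali Radix) to 0.47 (Sagunja-tang).

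At 100 µg/mL Cinnamomi Cortex went the other way for AKR1C2. The libraries held 130, 124 and 127 CPM, all below vehicle and below the 153, 144 and 143 CPM at 20. The log2 difference was -0.36 ± 0.059 SE from vehicle (adjusted p = 8.32e-06) and -0.21 ± 0.059 SE from 20 µg/mL (adjusted p = 0.0201, background 7.43%). The second call ended without Cinnamomi Cortex 20 replicate 1 (adjusted p = 0.122), without 100 replicate 2 (0.0918) or without 100 replicate 3 (0.0640). In the same step AKR1B10 rose by 0.95 ± 0.068 SE and AKR1C1 had a change of -0.0091.

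In the other extracts the called changes between neighbouring doses lay in the step from 100 to 500 µg/mL. AKR1B10, AKR1C1 and AKR1C2 were called higher in that step in all 6, with log2 values of 0.37 to 1.50, 0.33 to 1.43 and 0.34 to 0.83. Few other genes were. With Astragali Radix 0.0309% of genes were called higher (5 genes, 3 of them members), with Rehmanniae Radix Preparata 0.0804% (13 genes, 3 of them members) and with Samul-tang 0.0866% (14 genes, 3 of them members). With Sagunja-tang the share was 0.223%, with Cnidii Rhizoma 0.359% and with Cinnamomi Cortex 27.7%. In either direction the shares were 0.0557%, 0.105%, 0.216%, 0.476%, 0.897% and 55.4% in the same order. The steps of these 5 extracts were chosen for testing after the members' values were seen. The AKR1B10 call with Astragali Radix (log2 0.37 ± 0.070 SE, adjusted p = 0.00745) ended without Astragali Radix 500 replicate 1 (0.229), 100 replicate 2 (0.187) or 100 replicate 3 (0.211), and with the fit limited to the groups compared (0.190).

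Between 20 and 100 µg/mL no member was called in the 5 extracts other than Cinnamomi Cortex, in contrasts in which 0.00619% (Cnidii Rhizoma), 0.0557% (Rehmanniae Radix Preparata), 0.0124% (Astragali Radix), 0.0186% (Sagunja-tang) and 0.21% (Samul-tang) of genes were called. At an unadjusted p under 0.05 the counts were 3 members with Cnidii Rhizoma, 3 with Samul-tang and 2 with each of the others. DESeq2 called 1, AKR1B10 with Samul-tang (log2 0.27, adjusted p = 0.0241). AKR1B10 was higher at 100 than at 20 by log2 0.15 to 0.27 in the 5, with adjusted p of 0.0761 or more in edgeR. Its 100 libraries lay above all 20 libraries with Rehmanniae Radix Preparata, Astragali Radix, Sagunja-tang and Samul-tang, and overlapped them with Cnidii Rhizoma. With Samul-tang they went from 35.8, 32.8 and 35.04 CPM at 20 to 41.0, 40.5 and 43.0 at 100. AKR1C1 had its lowest level at 100 in all 5. It went from 304, 262 and 310.5 CPM at 20 to 244, 260 and 255 at 100 with Cnidii Rhizoma, and from 259, 259 and 262 to 234, 237 and 238 with Samul-tang. The 100 libraries lay below all 20 libraries in each of the 5 extracts, by log2 -0.11 to -0.21, with adjusted p of 0.226 or more. Against vehicle, AKR1C1 at 100 was called lower with Samul-tang (log2 -0.23 ± 0.052 SE, adjusted p = 0.00433, background 8.08%), Astragali Radix (-0.21 ± 0.052 SE, 0.0188, background 2.26%) and Sagunja-tang (-0.16 ± 0.052 SE, 0.0452, background 8.85%). Leaving out 1 library ended the call with Astragali Radix in 4 cases and with Sagunja-tang in 5, with adjusted p up to 0.134 and 0.182.

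The ratio of AKR1C1 to AKR1C2 moved in opposite directions. Vehicle libraries had 1.70 times as many AKR1C1 reads as AKR1C2 reads (mean log2 ratio 0.76 ± 0.060 SD, n = 3). With Cinnamomi Cortex the ratio was 1.86 at 20 µg/mL, 2.13 at 100 and 3.23 at 500. With Astragali Radix it went from 1.80 at 20 to 1.59 and 1.43, and with Sagunja-tang from 1.81 to 1.69 and 1.52. The ratio fell from 1.77 to 1.54 with Rehmanniae Radix Preparata, from 1.79 to 1.61 with Samul-tang and from 1.74 to 1.60 with Cnidii Rhizoma. In each extract all 500 libraries lay on 1 side of all 20 libraries.

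Per dose step the log2 ratio changed by 0.40 with Cinnamomi Cortex and by -0.06 to -0.17 with the other 5. A two-sided exact permutation test over the 1680 assignments of 9 libraries to 3 doses gave p from 0.00119 to 0.0119, and 0.00238 to 0.0119 after Benjamini-Hochberg adjustment over the 6 extracts. Without Cnidii Rhizoma 500 replicate 3 the change with that extract was -0.05 (exact permutation p = 0.0625), and without Samul-tang 500 replicate 1 it was -0.07 with that formula (p = 0.05). The ratio was chosen for testing after the values of both genes were seen. Reads shared by the 2 genes are assigned by estimation, and the part of that step in these ratios was not tested. Counted as 1 feature, AKR1C1 plus AKR1C2 rose with dose in all 6 extracts, by 0.13 (Samul-tang and Astragali Radix) to 0.60 (Cinnamomi Cortex).

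**Figure D3:**
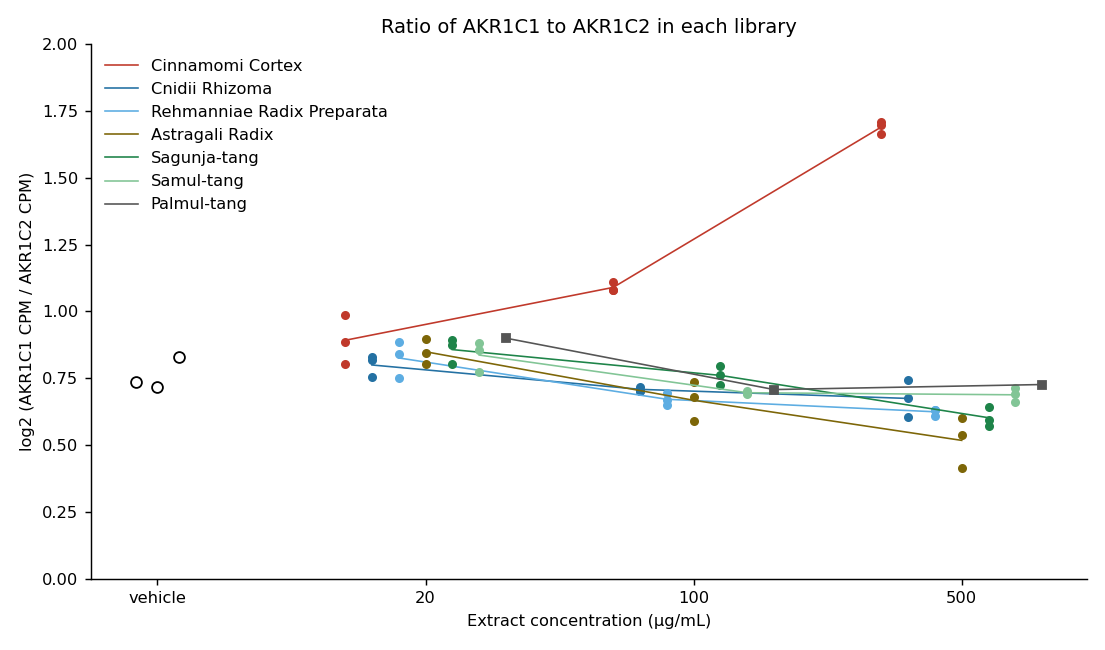
Log2 of AKR1C1 CPM over AKR1C2 CPM (vertical axis) in every library against extract concentration in µg/mL (horizontal axis, evenly spaced steps; extracts side by side); symbols and lines are as in the plot of CPM by dose. The Cinnamomi Cortex libraries climb to a mean of 1.69 at 500, and those of the other 5 replicated extracts end between 0.52 and 0.69.

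AKR1C3, which makes testosterone from androstenedione, changed with Cinnamomi Cortex. It stood at 37.4, 41.5 and 34.3 CPM with vehicle and at 59.1, 56.2 and 64.1 with Cinnamomi Cortex 500, with no overlap (fold 1.58, log2 0.66 ± 0.10 SE, adjusted p = 2.39e-07). In all other replicated groups its mean lay between 32.8 and 41.2 CPM, and no other dose trend was called.

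AKR1D1, the reductase of bile acid synthesis, was the 1 member called lower with Cinnamomi Cortex at 500 µg/mL. Vehicle libraries held 23.4, 23.3 and 23.4 CPM. Cinnamomi Cortex gave 23.5, 24.2 and 26.1 CPM at 20, 25.2, 22.0 and 24.0 at 100, and 12.04, 12.2 and 12.5 at 500 µg/mL. The 500 libraries lay below those of every other group, at 0.52 times vehicle (log2 -0.93 ± 0.070 SE, adjusted p = 2.53e-16), while 20 and 100 were not called. The trends in the other 5 extracts lay between -0.05 and 0.07 and were not called. In the libraries of Cinnamomi Cortex 500 the 12 hepatocyte markers summed to 73864 to 74124 CPM, above vehicle, but to 61710 to 63811 CPM, below the 65665 to 65823 of vehicle, when scaled by total counts. Of the 12, 6 were called higher and 4 lower against vehicle. AHSG had 3792 ± 190 CPM against 1718 ± 24.5 with vehicle (SD, n = 3), and SERPINA1 18366 ± 751 against 10252 ± 138. TTR had 322 ± 13.5 against 180 ± 10.7, and HNF4A 415 ± 12.7 against 316 ± 3.05. FGA, a fibrinogen chain, was lower, with 1503 ± 44.6 CPM against 2651 ± 118. The mitochondrial share of counts was 19.4% to 22.3% against 14.4% to 16.7% with vehicle. Single libraries of other groups were as high, with 22.6% in Cnidii Rhizoma 500 replicate 1 and 20.4% in Rehmanniae Radix Preparata 500 replicate 1. The other libraries of these groups had 15.2% to 17.2%. With Cinnamomi Cortex 500 the 15 markers of other cell types summed to 185 to 209 CPM, with 10 of them under 0.1 CPM. CD68 had 142 ± 10.6 CPM, above vehicle, while ACTA2 had 54.7 ± 2.71 and CD14 1.47 ± 0.38, both below vehicle. The part of these in the fall of AKR1D1 and in the rises of the other members was not tested.

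AKR1A1, AKR1B1 and AKR7A2, the general aldehyde, aldose and aflatoxin aldehyde reductases, varied little. Over all 60 libraries AKR1A1 ran from 65.1 to 84.5 CPM (median 72.0), AKR1B1 from 61.5 to 89.9 (median 71.0) and AKR7A2 from 39.0 to 54.7 (median 44.2). The highest group mean of each was that of Cinnamomi Cortex 500, with 82.2 ± 2.55, 86.1 ± 3.32 and 54.0 ± 0.83 CPM (SD, n = 3). Their dose trends with Cinnamomi Cortex were 0.10 ± 0.026, 0.14 ± 0.037 and 0.15 ± 0.034 SE per step, with adjusted p of 0.00133, 7.20e-04 and 1.23e-04. Against vehicle at 500 AKR7A2 (log2 0.28 ± 0.068 SE, adjusted p = 4.29e-04) and AKR1A1 (0.14 ± 0.052 SE, 0.0188) were called and AKR1B1 was not. The AKR1A1 call ended without vehicle replicate 1 (0.0835) or Cinnamomi Cortex 500 replicate 2 (0.0753).

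These 3 small rises depend on the scaling of the libraries. TMM raised all values of Cinnamomi Cortex 500 relative to a division by total counts, which shifts every gene by -0.28 (log2) against vehicle and by -0.13 per dose step. By total counts AKR1A1 at 500 was lower than vehicle (-0.14 in place of 0.14), AKR1B1 was lower (-0.16 in place of 0.12) and AKR7A2 was level (-0.0031 in place of 0.28). The trend of AKR1A1 turned to -0.04, and those of AKR1B1 and AKR7A2 shrank to 0.0099 and 0.02. AKR1B10 (2.01), AKR1C1 (1.12), AKR1C3 (0.38), AKR1C2 (0.19) and AKR1D1 (-1.21) kept their directions at 500.

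**Figure D4:**
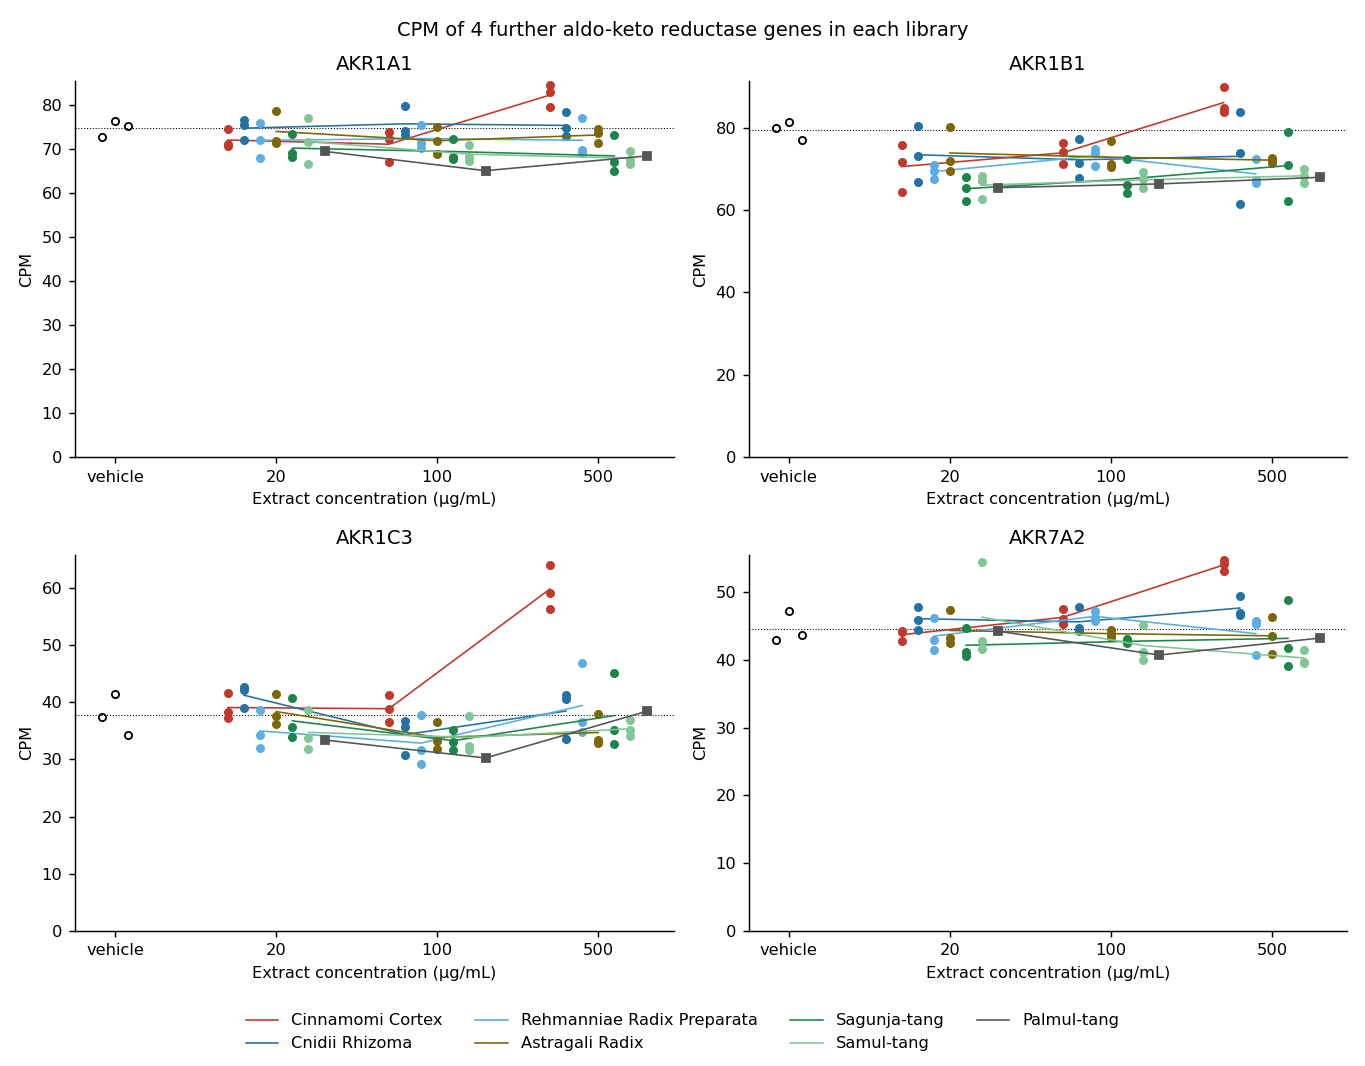
CPM of AKR1A1, AKR1B1, AKR1C3 and AKR7A2 (vertical axes, from 0) in every library against extract concentration in µg/mL (horizontal axes, evenly spaced steps; extracts side by side); symbols and lines are as in the plot of CPM by dose for AKR1B10. The mean of Cinnamomi Cortex 500 is the highest for all 4 genes, 59.8 CPM for AKR1C3; with scaling by total counts it is below vehicle for AKR1A1 and AKR1B1 and level with it for AKR7A2.

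AKR1B1, the enzyme that turns glucose into sorbitol, had a lower mean than vehicle in every replicated group but Cinnamomi Cortex 500. At 20 µg/mL the log2 difference lay between -0.11 and -0.29 in the 6 extracts, with no overlap in 4 of them, and was called in the formulas Sagunja-tang and Samul-tang. With Rehmanniae Radix Preparata 20 (-0.20 ± 0.074 SE, adjusted p = 0.0989) it was called without the filter on low counts (0.0159) and with the fit limited to the groups compared (0.0489). Vehicle libraries held 80.0, 81.4 and 77.0 CPM, those of Sagunja-tang 62.2, 65.3 and 68.1 and those of Samul-tang 62.8, 68.4 and 67.1, with no overlap. The log2 differences were -0.29 ± 0.074 SE (adjusted p = 0.00744, background 11.4%) and -0.27 ± 0.074 SE (0.00787). Neither formula had a called dose trend of AKR1B1 (0.06 and 0.02). The log2 difference from vehicle was also called at 100 in both (-0.24, adjusted p = 0.0338 and 0.0337) and at 500 with Samul-tang (-0.22, 0.0416). Leaving out 1 library ended these 3 calls in 4 cases with Sagunja-tang 100, 5 with Samul-tang 100 and 5 with Samul-tang 500, of 6 each, with adjusted p up to 0.160, 0.130 and 0.143. Against the mean of the 6 groups at 20 in place of vehicle these 3 were -0.05, -0.05 and -0.03 and not called. The vehicle and the formulas differ in sample code as well as in treatment, which cannot be told apart here. Leaving out Sagunja-tang 20 replicate 1 took that adjusted p to 0.0531, and with the fit limited to the groups compared that of Samul-tang was 0.0833.

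AKR7A2 fell with Samul-tang by 0.10 ± 0.034 SE per step (adjusted p = 0.0454). The libraries held 41.6, 54.4 and 42.8 CPM at 20 and 39.7, 41.5 and 39.6 at 500, all 500 libraries below those at 20. Without Samul-tang 20 replicate 2 the trend was -0.04 (adjusted p = 0.786), and without 500 replicate 1 or 3 the adjusted p was 0.147 and 0.140. AKR1C1 with Samul-tang (trend 0.10 ± 0.026 SE, adjusted p = 0.0126) also lost its call without 20 replicate 2 (0.122) or 500 replicate 3 (0.0673). With the fit limited to Samul-tang both calls ended (0.322 for AKR7A2 and 0.137 for AKR1C1).

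Extracts of 1 set were compared directly, since they share a sample code. At 500 µg/mL AKR1B10 was higher with Cnidii Rhizoma than with Rehmanniae Radix Preparata (log2 0.36 ± 0.066 SE, adjusted p = 0.00101), the 1 member of 9 called where 0.705% of genes were. Sagunja-tang exceeded Samul-tang in AKR1B10 (0.41 ± 0.066 SE, adjusted p = 2.11e-04), AKR1C2 (0.32 ± 0.058 SE, 0.00112) and AKR1C1 (0.23 ± 0.052 SE, 0.0125), 3 of 9 members where 0.885% of genes were called. With the fit limited to the groups compared the AKR1B10 difference of the herbs (adjusted p = 0.136) and the AKR1C2 (0.0658) and AKR1C1 (0.381) differences of the formulas were not called. AKR1C1 also lost its call without Samul-tang 500 replicate 1 (0.0693) or Sagunja-tang 500 replicate 2 (0.127).

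Differences between dose trends in these 2 pairs, with 0.068% and 0.142% of genes called, were not called for any member by edgeR. At an unadjusted p under 0.05 there were 2 members for the herbs and 4 for the formulas, and DESeq2 called 0 in both. The trend of AKR1B10 exceeded that of the partner by 0.19 (95% interval 0.094 to 0.29, adjusted p = 0.139) for Cnidii Rhizoma and by 0.16 (0.063 to 0.26, adjusted p = 0.174) for Sagunja-tang. In the set of the other two herbs the trends of 7 of 9 members differed between Cinnamomi Cortex and Astragali Radix, where 50.9% of genes were called. For AKR1C2 that difference was 0.08 (95% interval -0.0076 to 0.16) and was not called. Against the mean of the other 5 extracts 8 of 9 members differed (58.9% of genes), led by AKR1B10 (0.79 ± 0.037 SE) and AKR1C1 (0.58 ± 0.029 SE). AKR1C2 differed by 0.07 (adjusted p = 0.0412), a call that leaving out single libraries of any of the 6 extracts could end, with adjusted p up to 0.166. The direction of this difference depends on the scaling. By total counts the AKR1C2 trend was 0.179 with Cinnamomi Cortex, below the 0.182 (Samul-tang) to 0.283 (Sagunja-tang) of the other 5, which was not tested. At 500 µg/mL itself 7 of 9 members differed between Cinnamomi Cortex and Astragali Radix, where 62.7% of genes were called.

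Palmul-tang, without replicates, gave AKR1B10 at 35.6, 40.7 and 58.6 CPM at 20, 100 and 500 µg/mL. AKR1C1 was at 272, 234 and 304 CPM and AKR1C2 at 146, 143 and 184 at the same doses. The AKR1B10 and AKR1C2 values at 500 were close to those of Samul-tang (58.3 ± 3.33 and 185 ± 1.13 CPM, SD, n = 3) and below each Sagunja-tang library. AKR1C1 had its lowest value at 100 here too. The Palmul-tang libraries carry another sample code than Sagunja-tang and Samul-tang, and they were not tested.

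Many known target genes of NRF2 rose with Cinnamomi Cortex. Of 28 tested targets, 24 rose and 2 fell, which is 92.9% called beside 61.9% of all genes, with a median trend of 0.33 beside -0.01. SQSTM1 (the autophagy receptor p62) rose by 1.10 ± 0.023 SE per step, SLC7A11 (the cystine importer) by 0.90 ± 0.034, GCLC (a glutathione synthesis enzyme) by 0.74 ± 0.022, SRXN1 by 0.70 ± 0.028 and NQO1 (a quinone reductase) by 0.47 ± 0.025. AKR1B10, at 1.23 ± 0.034, exceeded all 28. The list was chosen with earlier results of these libraries known.

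In the other extracts the targets that rose numbered 15 with Cnidii Rhizoma, 15 with Rehmanniae Radix Preparata, 17 with Sagunja-tang, 15 with Samul-tang (and 1 fell) and 4 with Astragali Radix, with median trends of 0.07 to 0.11. The shares called were 53.6%, 53.6%, 60.7%, 57.1% and 14.3%, beside 3.22%, 0.674%, 4.99%, 9.88% and 1.16% of all genes. Examples with Cnidii Rhizoma were ABCC3 (a bile salt and conjugate exporter, 0.24 ± 0.033), SRXN1 (0.19 ± 0.028) and GSR (0.15 ± 0.020). AKR1B10 lay above all 28 targets in each of these 5 extracts too. With the fit limited to Samul-tang the count there was 3, without the replicate 1 libraries of the Cinnamomi Cortex and Astragali Radix set the Astragali Radix count was 1, and without 1 library the Cnidii Rhizoma count went down to 9 and the Astragali Radix count to 2. Of the 8 regulators, NFE2L2, which encodes NRF2 itself, had a trend of 0.02 with Cinnamomi Cortex, not called, and of -0.10 with Cnidii Rhizoma (adjusted p = 0.0110). With Cinnamomi Cortex 6 regulators rose and 1 fell (87.5% called, beside 61.9% of all genes). MAFF (0.76 ± 0.042) and MAFK (0.59 ± 0.038), small MAF partners of NRF2, rose furthest of those named. NFE2L1 (0.39 ± 0.019), MAFG (0.33 ± 0.029) and BACH1 (0.26 ± 0.036) rose too.

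**Figure D5:**
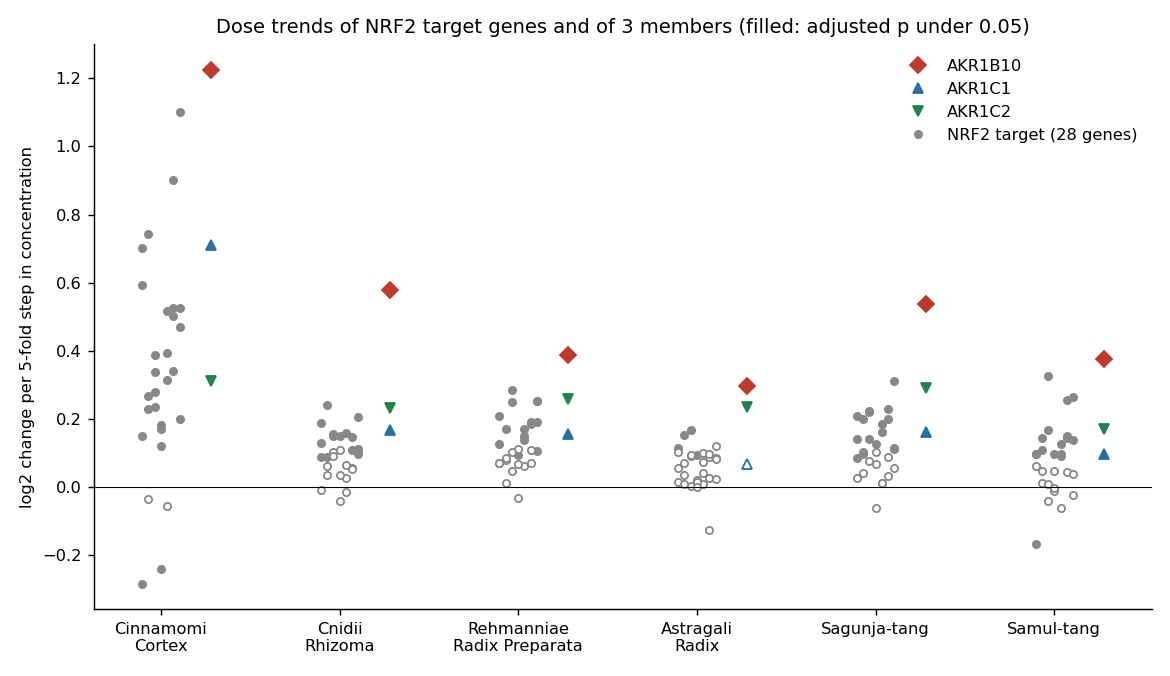
Dose trend as log2 change per 5-fold step in concentration (vertical axis) of 28 NRF2 target genes (grey circles) and of AKR1B10, AKR1C1 and AKR1C2 (coloured symbols) in 6 extracts (horizontal axis); filled symbols passed an adjusted p of 0.05. AKR1B10 lies above every target in each of the 6 extracts, from 0.30 to 1.23.

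The genes around AKR1D1 in steroid and bile acid metabolism moved both ways with Cinnamomi Cortex, 11 of 23 tested higher and 7 lower, which is 78.3% called beside 61.9% of all genes. NR1H4, the bile acid receptor FXR, fell by 0.78 ± 0.034 SE per step, HSD11B2, which inactivates cortisol, fell by 0.64 ± 0.054, and HSD17B4, a peroxisomal enzyme of bile acid side chain oxidation, fell by 0.28 ± 0.023. NR0B2 (the corepressor SHP) rose by 0.53 ± 0.051 and BAAT (bile acid conjugation) by 0.49 ± 0.047. With the other extracts 0 to 3 of the 23 were called, the 3 with Samul-tang, where 9.88% of all genes were.

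Partners of AKR1B1 and AKR1B10 were split as well with Cinnamomi Cortex. SORD, which takes sorbitol on to fructose, fell by 0.37 ± 0.022 SE per step, and HSPA4L fell too (-0.43 ± 0.032). The osmolyte and amino acid carriers SLC6A8 (0.68 ± 0.043), SLC38A2 (0.51 ± 0.026) and SLC5A3 (0.41 ± 0.031) rose. In that list 6 of 11 polyol and osmotic genes were higher and 4 lower (90.9% called, beside 61.9% of all genes). Among 5 tested retinol and retinoid genes 3 rose and 1 fell (80% called, beside the same 61.9%), with RDH10 (0.35 ± 0.031) and RDH11 (0.18 ± 0.020), both retinol dehydrogenases, and DGAT1 fell by 0.50 ± 0.042.

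Likeness of other genes to a member was described by Pearson's r over group means of log2 CPM, among 11942 genes with a mean of at least 2 CPM. The lists of most alike genes leave out the members themselves. These groups share a cell line and a fit, and Cinnamomi Cortex 500 stands far out, so r is given with and without it. Over 19 groups the genes most like AKR1B10 were DAP3 (0.955), RAB5IF (0.951), DCUN1D5 (0.944), LAD1 (0.943) and STRAP (0.942). Over the 18 groups without Cinnamomi Cortex 500 they were TEX19 (0.923), SRXN1 (0.911), RAB5IF (0.901), PSMD11 (0.900) and LAD1 (0.894). RAB5IF and LAD1 were in both lists.

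For AKR1C1 the list over 19 groups was CLDN4 (0.929), TXN (0.929), RAB5IF (0.925), MSANTD3 (0.925) and GCLC (0.924), and over 18 groups CBR1 (0.804), UQCRC2 (0.776), ATAD3A (0.771), PSMD11 (0.768) and ABCB6 (0.764). For AKR1D1 it was DSN1 (0.985), TCF19 (0.972), FYB2 (0.971), SPC24 (0.965) and CCDC34 (0.963), and over 18 groups DSN1 (0.871), PIGX (0.735), AP4S1 (0.719), FRA10AC1 (0.708) and PANK2 (0.708). Among the members, AKR1B10 was most like AKR1C1 (0.895 over 19 groups and 0.723 over 18), and its r with AKR1D1 went from -0.719 to 0.037. AKR1C1 and AKR1C2 had an r of 0.724 over 19 groups and 0.879 over 18, the latter above that of CBR1 with AKR1C1.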

How the data were processed

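The deposited table holds expected counts, which are estimated reads per gene with no scaling for depth or length; the unit was read from the values, 8.58% of which are not whole. Per the submitters' processing notes, FastQC 0.11.9, Trim Galore 0.6.5, STAR 2.7.3a, RSEM 1.3.3 and the build GRCh38 (hg38) were used; the annotation release is not given in the sources used here. Per the labels' protocols, RNA with an integrity number above 7 was made into directional libraries and read as 100 bp paired ends.

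Of 270 columns, 60 were used and 210 were not. Counts were rounded, filtered (filterByExpr, 16167 genes left) and scaled by TMM (factors 0.834 to 1.05) in edgeR 4.0.16 (R 4.3.3). One quasi-likelihood model of 57 libraries gave all contrasts (two-sided F test, Benjamini-Hochberg within a contrast). Intervals use the SE and the 38 residual degrees of freedom. Symbols came from a current list of gene names, and from GENCODE release 29 where that list had none. Positions came from GENCODE release 29, in which 57055 IDs were found, and promoters from RefSeq.

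The members and gene lists were chosen with earlier results of these data known. All members are named. In each list, names were drawn from up to 5 called genes by adjusted p of the Cinnamomi Cortex trend and 3 by that of Cnidii Rhizoma. Not all of these are named, and genes named from outside them are stated. Alternatives were RLE size factors, no filter, DESeq2 1.42.0, a replicate block, only the compared groups, 1 library left out, set 6 replicate 1 libraries left out, summed AKR1C genes, the 20 µg/mL groups as comparator and CPM by total count. The fit was tested on simulated counts in which a small share of genes was changed, as many up as down. That setting differs from Cinnamomi Cortex 500 against vehicle, where 62.7% of genes were called, so it does not test the fit there.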

Additional observations from a re-analysis of the deposited data

Results flagged for a closer look

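The dose trends of 7 members differed between Cinnamomi Cortex and Astragali Radix, 2 single herbs whose libraries share the first number of their sample codes. In the same contrast 50.9% of all genes were called. Each difference was tested as a contrast of trends in edgeR and is given as the Cinnamomi Cortex trend minus the Astragali Radix trend, in log2 per 5-fold dose step. AKR1B10 differed by 0.93 ± 0.048 SE (adjusted p = 1.41e-21) and AKR1C1 by 0.64 ± 0.037 (5.52e-20). AKR1C3 differed by 0.38 ± 0.074 (3.10e-05), and AKR1D1, which fell with Cinnamomi Cortex, by -0.57 ± 0.048 (3.15e-14).

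The differences of AKR7A2 (0.16 ± 0.048, adjusted p = 0.00401), AKR1B1 (0.16 ± 0.053, 0.00880) and AKR1A1 (0.10 ± 0.037, 0.0169) were smaller, and total-count scaling shifts the Cinnamomi Cortex trend of every gene by -0.13 per step. Without the replicate 1 libraries of this set AKR7A2 (0.12, adjusted p = 0.117) and AKR1A1 (0.08, 0.142) were not called, and AKR1C2 then was (0.15, 0.00392). AKR1A1 also lost its call without Astragali Radix 20 replicate 1 (0.0814) or Cinnamomi Cortex 500 replicate 2 (0.0517).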

How the results depend on the processing

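Across single alternatives no value of a member that was called under either setting changed sign, except AKR1C3 when AKR1C1 to AKR1C4 were counted as 1 feature, which gave 0.17 for the Cnidii Rhizoma trend, 0.12 for the Astragali Radix trend and 0.21 for Astragali Radix 500 against vehicle; that feature is mostly AKR1C1 and AKR1C2 reads. By total counts, which was compared as a level and not tested, AKR1A1, AKR1B1 and AKR7A2 at Cinnamomi Cortex 500 changed sign as given above. The AKR1C2 trend of Cinnamomi Cortex then lay below those of the other replicated extracts. With the fit limited to the groups compared, the members called were 2 for the Samul-tang trend, 0 for Astragali Radix 100, 0 for Samul-tang 20 and 1 for Rehmanniae Radix Preparata 20 against vehicle, and 0 and 1 for the herb and formula pairs at 500; the NRF2 targets called with Samul-tang were 3 in place of 16. Without a filter on low counts they were 1 for Sagunja-tang 100, Rehmanniae Radix Preparata 20 and Astragali Radix 20 against vehicle, 1 for the trend difference of the herb pair and 1 for the 100 against 20 step of Cnidii Rhizoma and of Samul-tang, and 7 NRF2 targets with Astragali Radix in place of 4. RLE size factors gave 1 for Sagunja-tang 100, and DESeq2 gave 1 for the Samul-tang 100 against 20 step. Without the replicate 1 libraries of Cinnamomi Cortex and Astragali Radix, 1 member was called for either extract at 20 against vehicle, 1 for 100 against 20 with Cinnamomi Cortex and 1 with Samul-tang, and 1 NRF2 target with Astragali Radix. With the 6 groups at 20 as comparator, 1 was called for Rehmanniae Radix Preparata 100 and 1 for Samul-tang 100. The shares of all genes called under these settings are not given, here or above, so these counts cannot be set against a background. The cause of these changes was not tested.

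Leaving out 1 library gave 2 to 4 members called for the Samul-tang trend. Against vehicle at 500 it gave 3 to 5 with Sagunja-tang and 1 to 2 with Samul-tang. At 100 it gave 0 to 1 with Astragali Radix, 0 to 1 with Sagunja-tang and 1 to 2 with Samul-tang, and at 20 it gave 0 to 1 with Sagunja-tang and 1 to 4 with Samul-tang. The herb pair's trend difference gave 0 to 1, and the 100 against 20 step gave 1 to 2 with Cinnamomi Cortex, 0 to 1 with Cnidii Rhizoma and 0 to 1 with Samul-tang. The change of the AKR1C1 to AKR1C2 ratio per dose step ran from -0.080 to -0.045 with Cnidii Rhizoma and from -0.090 to -0.063 with Samul-tang. For NRF2 targets the counts were 9 to 15 with Cnidii Rhizoma and 2 to 4 with Astragali Radix. Shares of all genes called with 1 library left out are not given either.

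Libraries share replicate numbers, but the numbers do not pair them: deviations of same-numbered libraries of a set correlated at a mean of 0.021, and in no comparison were all 3 correlations over 0.1. A replicate block gave 2 members for the herb pair at 500, adding AKR1D1 (0.24, adjusted p = 0.0487), and changed no other call. With 2 to 20 counts per library, AKR7A3 had an SE of 0.17 to 0.18 per dose step beside 0.026 for AKR1A1, so small changes in it were not detectable at this depth, and AKR1C4, with 0 to 8, was not tested.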

Other observations

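Other enzymes that act on aldehydes and ketones moved both ways with Cinnamomi Cortex. Of 19 tested, 5 rose and 9 fell (73.7% called, beside 61.9% of all genes), and in each of the other 5 extracts 2 rose and 0 or 1 fell. ADH6 (-0.49 ± 0.027 SE per step), ADH4 (-0.47 ± 0.040) and DHRS2 (-0.33 ± 0.027), alcohol and short-chain dehydrogenases, were among those that fell, and DHRS3 (0.33 ± 0.034), which reduces retinal, and HAGH (0.23 ± 0.029), of the glyoxalase system, among those that rose. ALDH1A1, the retinal and aldehyde dehydrogenase, rose with Cnidii Rhizoma (0.17 ± 0.030, adjusted p = 2.60e-04) and, by values looked up after that, in the 4 others apart from Cinnamomi Cortex (0.14 to 0.28), whereas it fell by 0.09 with Cinnamomi Cortex. ALDH3A1, picked after its values were seen, rose with Rehmanniae Radix Preparata (0.62), Sagunja-tang (0.84) and Samul-tang (0.69).

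Of 7 further aldo-keto reductase genes 4 were tested. With Cinnamomi Cortex KCNAB2, a potassium channel beta subunit of this fold, rose by 0.20 ± 0.043 SE per step, while KCNAB3 (-0.81 ± 0.18) and AKR7L (-0.86 ± 0.24), both under 1 CPM in vehicle cells, fell. None of the 4 had a called trend in the other 5 extracts by edgeR.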
